A study of Drosophila melanogaster with 4 samples.

Results

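The regions described here are the widest stretches of BEAF binding found by chromatin immunoprecipitation and sequencing (ChIP-seq) in Drosophila melanogaster embryos. They were selected on width alone: every region typed as enriched in the authors' combined list and wider than 5000 bp was kept, on any sequence. That gave 205 of 5003 regions, or 4.10% (exact 95% binomial interval 3.57 to 4.68%). The combined list was deposited for the replicate set as a whole, so it is the authors' single list with no replicate error of its own. In the replicates' own lists, 133 of 4169 regions (3.19%) and 183 of 4349 regions (4.21%) passed the same width, a mean of 3.70 ± 0.72% (SD, n = 2).

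BEAF takes its name from boundary elements, to which it binds: stretches of DNA that separate neighbouring chromatin domains. It recognises short motifs that tend to lie in clusters, and it is found mostly near the starts of active genes. Its isoforms are made from 1 gene and differ in their DNA-binding end. A ChIP-seq region is the stretch over which immunoprecipitated DNA was called above its background, so its width depends on how many binding sites lie close together, on fragment length and on the caller.

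All samples were whole wild-type Oregon-R embryos, 14 to 16 h old, fixed in 1.8% formaldehyde, so cell types were mixed. There were 2 ChIP samples and 2 input samples. The ChIP antibody, BEAF-HB, is an affinity-purified rabbit polyclonal against residues 88 to 282 of BEAF, and its targets are written as BEAF32A and, in different places, BEAF42B or BEAF32B. The inputs have no region list of their own. Samples were grouped by title, because the free-text descriptions of ChIP replicate 1 and input replicate 1 read as each other's, and the labels do not say whether replicates came from separate collections. With 2 ChIP samples, both of which entered the combined list, no test across samples was made, and every value below is a description. Intervals cover the counting of regions only. The lists hold no read counts, so depth is unknown.

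The wide regions covered 1.27 of the 12.8 Mb covered by all regions, or 9.90%. Their widths ran from 5001 to 11241 bp, with a median of 5769 bp and quartiles of 5365 and 6587 bp. The other 4798 regions had a median width of 2301 bp and quartiles of 1877 and 2797 bp. Most of the wide regions were only moderately above the width threshold: 128 measured up to 6000 bp, 40 up to 7000 bp, 19 up to 8000 bp, 11 up to 9000 bp, 2 up to 10000 bp and 5 more than that. There was no step at the threshold, since 16 regions were up to 100 bp wider than 5000 bp and 17 were at 5000 bp or up to 100 bp narrower. The narrowest that passed were chr3R:3944642-3949642 at 5001 bp, with a score of 2.62, chrX:17743138-17748144 at 5007 bp, with a score of 3.69, and a pair of 5011 bp, chr3R:8452374-8457384 and chr2R:14297856-14302866, with scores of 2.11 and 3.57. Those that just failed were chr2L:8380594-8385590 at 4997 bp, chr3R:11797164-11802158 at 4995 bp and chr4:978196-983182 at 4987 bp, with scores of 2.45, 2.38 and 1.62. All coordinates are those of FlyBase release 5.

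The authors' score, a value per region, has no stated scale or base, so scores and their differences can be compared only in size, not read as folds. It comes from the same immunoprecipitation as the width and is given as a description. The wide regions had a median score of 2.91, from 0.476 to 4.53, and the narrower regions a median of 0.798. The highest score quartile of the list held 123 of the 205 wide regions, the quartile below it 72, the next 10 and the lowest 0. At the very top of the ranking, the share of wide regions was close to that of the whole list. Of the 100 regions with the highest scores, 4 were wide, against 4.10% of all combined regions. A count of 4 is small, so whether this share differs from that of the highest quartile cannot be told and was not tested. The median width of these 100 was 3046 bp. None of the top 20 was wide, too few regions to set against that share, and the widest of them measured 4337 bp.

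The highest-scoring wide region, chrX:5928844-5934584, ranked 32nd in the combined list with a score of 4.53. It was 1 region of 5391 bp with a score of 4.44 in replicate 1, and 1 region of 4313 bp with a score of 5.19 in replicate 2, where it ranked 2nd. The lowest-scoring, chrX:5569914-5575132, had a score of 0.476 at a width of 5219 bp. Replicate 2 held it as 1 region of 5204 bp, whereas replicate 1 held only 1597 bp at its left edge, the least of any wide region (30.6% of its length). Altogether 12 wide regions had scores under 1, with widths of 5075 to 6445 bp, and 4 of these lay on X.

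**Figure D1:**
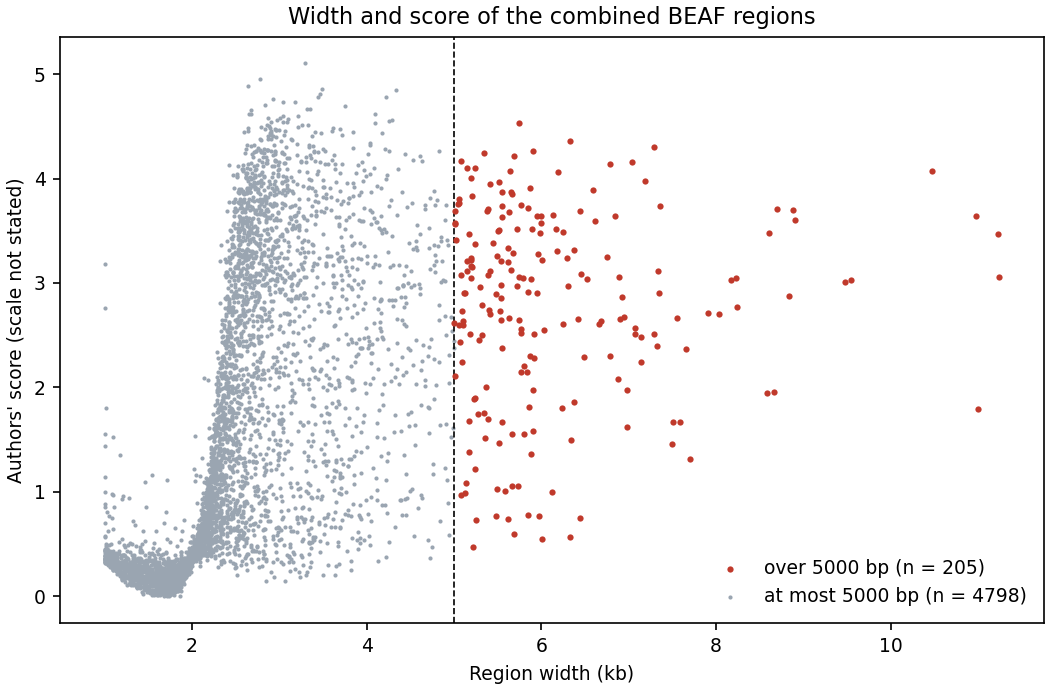
Width in kb (horizontal axis) against the authors' score (vertical axis) of each of the 5003 regions of the combined list, the 205 over 5000 bp in red and the 4798 others in grey, with the threshold as a dashed line. The far more numerous narrower regions reach higher scores, and the wide regions spread over scores of 0.476 to 4.53.

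The first question was whether each wide region was 1 stretch of binding or several neighbours joined by the combination of replicates. All 205 overlapped a region in both replicates (lower 95% limit 98.2%), against a background of 77.8% of all combined regions. Since the same immunoprecipitations made the combined list, nothing is read from that count. In both replicates 148 wide regions were a single region. The remaining 57 were several regions in at least 1 replicate, or 27.8% (21.8 to 34.5%), where an overlap of 1 bp counted. Over the whole combined list that share was 1.78%, and among the narrower regions it was 32 of 4798, or 0.667% (0.457 to 0.940%). Width chose these regions and also bears on how many regions can lie inside them, so nothing is read from that difference.

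The replicates did not split the same regions equally often. Replicate 1 held 47 of the 205 as several regions (22.9%, 17.4 to 29.3%) and replicate 2 held 22 (10.7%, 6.85 to 15.8%). In 35 cases only replicate 1 was split, in 10 only replicate 2, and in 12 both. Among the 45 split in 1 replicate only, the single region of the other replicate ran across every gap in 43. Requiring the wide region to hold at least 50% of each replicate region removed 1 case, chr3R:5578862-5584032, where the right-hand region of replicate 2 lay mostly beyond the edge. The split share was 21.9% of the regions up to 6000 bp (28 of 128), 32.5% up to 7000 bp (13 of 40), 36.8% up to 8000 bp (7 of 19) and 45.5% up to 9000 bp (5 of 11), with intervals that overlapped widely. Of the 2 regions up to 10000 bp both were split, and of the 5 beyond that 2 were.

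The stretches left between joined regions were short. Across both replicates there were 73 of them, from 0 to 1488 bp long, with a median of 87 bp. They measured at most 100 bp in 39 (53.4%) and at most 500 bp in 65 (89.0%). Such gaps lie inside 1 combined region by definition and were not set beside all gaps of the replicates' lists. Nothing is therefore read from their shortness. The median was 97 bp over 49 gaps in replicate 1 and 66.5 bp over 24 gaps in replicate 2. Short gaps were also present in the combined list, although its gaps are not those of the replicates. Among its 5003 regions were 61 pairs of neighbours that lay at most 100 bp apart, the closest at 1 bp. In the same list, 3 wide regions were within 25 bp of a separate neighbour.

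The joined regions often differed in width and score. The 142 of them measured 1348 to 8726 bp, with a median of 2929 bp, and 14 were over 5000 bp on their own. A set here is the regions of 1 replicate in 1 wide region. The 12 wide regions split in both replicates therefore count in each, here and among the gaps above. Overlap of 1 bp counted, so chr3R:5578862-5584032 is included. In 42 of the 69 sets (60.9%) the scores within a set differed by more than 1, and the median difference was 1.45. Scores were widely spread in general: the narrower combined regions had quartiles of 0.315 and 2.49. Differences between unjoined neighbours were not set beside these, so the counts of sets by score are a description only. In 24 sets there was at least 1 region with a score under 1 and at least 1 with a score over 2. In 15 sets every region was over 2, and in 6 every region was under 1. The best-scoring region was also the widest in 47 sets (68.1%). Most sets were pairs, and wider regions tended to have higher scores over the whole list, so nothing is read from that share.

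In the 12 wide regions split in both replicates, the position of the breaks can be compared. In 11 of them the closest pair of gap centres, 1 from each replicate, was within 500 bp, and the median distance of these pairs over all 12 was 108 bp. Further breaks had no such counterpart at chr2R:17544092-17555092, where replicate 2 had an additional gap, and at chr2R:19908568-19918044, where replicate 1 did. Taking the closest pair favours small distances, and the widths of the joined regions limit where a break can fall. No distance between unrelated breaks was set beside these, so they are a description only. The best-scoring regions of the replicates overlapped in 10 of the 12. The clearest case is chrX:11682758-11692302, the only wide region with 3 regions in both replicates. In replicate 1 it consisted of 1826, 3665 and 3325 bp with scores of 0.473, 4.22 and 0.948. In replicate 2 it consisted of 1623, 3705 and 3631 bp with scores of 0.417, 4.31 and 1.05. A strong central region was thus flanked by weak ones on both sides in both replicates, and the combined list gave the whole 9545 bp a score of 3.03.

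A weak region to the left of a strong one was found in the same order in both replicates at chrX:17777654-17784844. Replicate 1 held 1360 bp with a score of 0.285 and then 5343 bp with a score of 4.26, and replicate 2 held 1727 bp with a score of 0.393 and then 5319 bp with a score of 4.50. At chrX:169758-174910 replicate 1 held 1946 bp with a score of 0.504 and then 3130 bp with a score of 3.56. Replicate 2 there held 1989 bp with a score of 0.527, followed without any gap by 3199 bp with a score of 3.83. The exception in position was chr3R:5334854-5343734, of 8881 bp, whose break lay 2857 bp apart in the replicates. Replicate 1 divided it into 5293 and 3071 bp and replicate 2 into 2488 and 6337 bp, all with scores of 3.65 to 4.11.

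**Figure D2:**
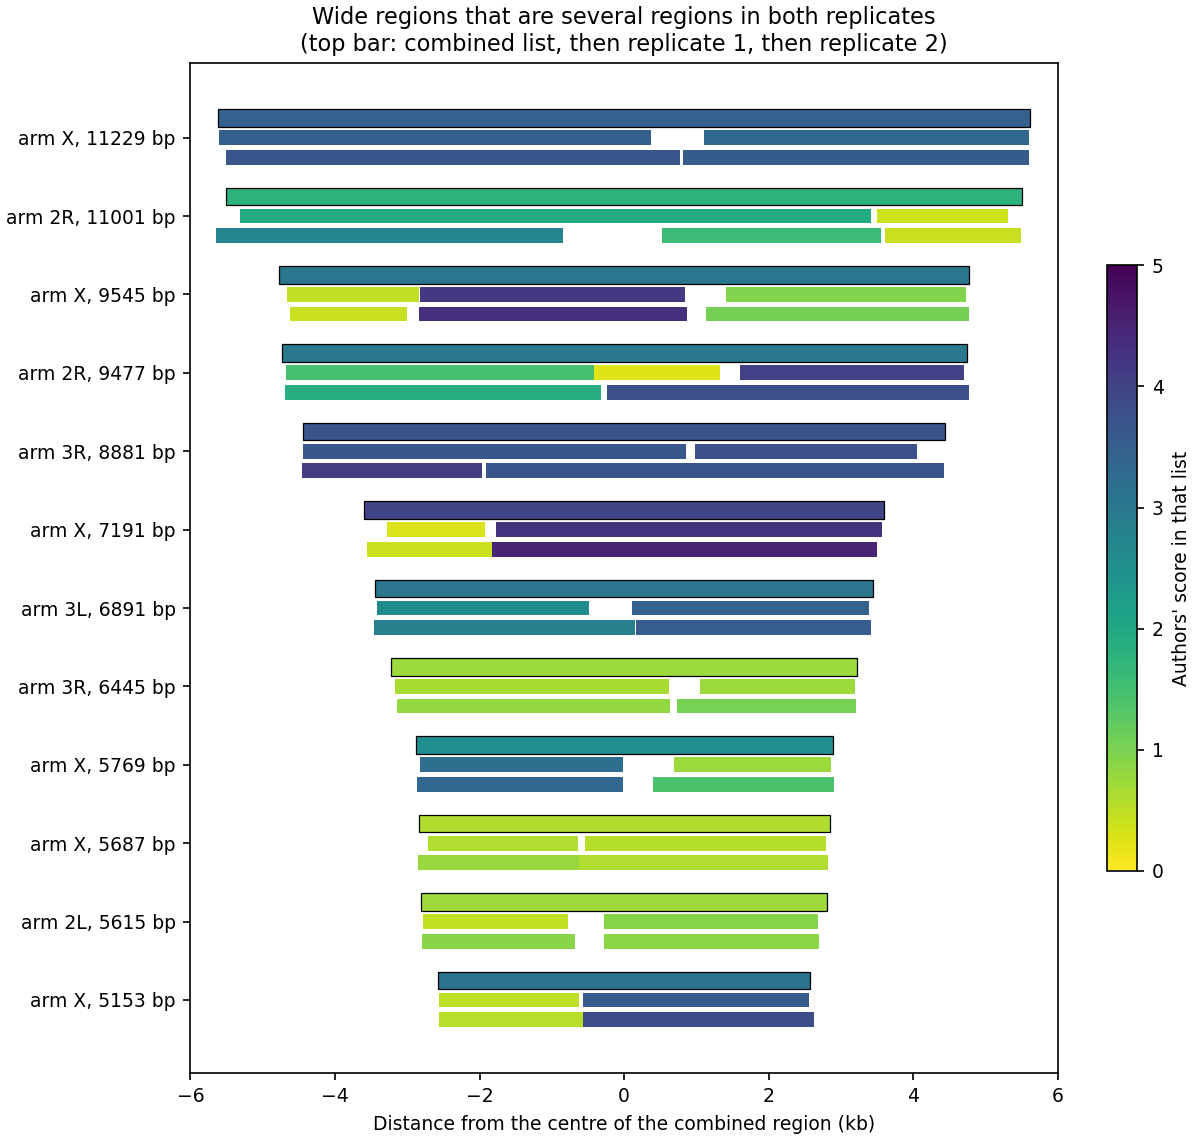
Extent of the 12 wide regions that were several regions in both replicates, from the widest at the top, as distance in kb from the centre of the combined region (horizontal axis), with the combined region outlined in black above replicate 1 and replicate 2. Colour gives the authors' score in each list, and the closest pair of breaks, 1 from each replicate, lies within 500 bp in 11 of the 12.

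Width above 5000 bp was held by the replicates to different degrees. In 122 of the 205 (59.5%, 52.5 to 66.3%) both replicates had a region over 5000 bp of their own. In 52 only replicate 2 did, in 11 only replicate 1, and in 20 neither. Of those 20, 8 were 1 region in each replicate, at most 5000 bp wide in both, and the rest were split in at least 1. Their combined widths ran from 5011 to 9545 bp. All 133 wide regions of replicate 1 and 174 of the 183 of replicate 2 lay in a wide combined region. The remaining 9 of replicate 2 overlapped only narrower combined regions, the widest at each measuring 2609 to 4997 bp. Of all 183, 5 overlapped 2 or more combined regions. For the 148 unsplit regions, replicate 2 was the wider in 110, by a median of 70 bp over all 148. Replicate 1 covered a median of 97.7% of the length of a wide region and replicate 2 a median of 99.3%.

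The 5 regions over 10000 bp differed in make-up, and 4 of them lay on X. The widest, chrX:9048618-9059858, measured 11241 bp with a score of 3.06. It was 1 region in each replicate, of 11009 bp with a score of 2.99 in replicate 1 and 10188 bp with a score of 3.38 in replicate 2. Unsplit in the same way were chrX:4823298-4834274, of 10977 bp with a score of 3.65, and chrX:7823898-7834368, of 10471 bp with a score of 4.07. Their replicate regions measured 10834 and 10933 bp for the first and 10426 and 10406 bp for the second. Uninterrupted stretches of more than 10000 bp were therefore present in both replicates at 3 places, all on X.

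The other two were joined. chrX:22405416-22416644 measured 11229 bp with a score of 3.47. It was divided into 5979 and 4497 bp with a gap of 733 bp in replicate 1, and into 6293 and 4797 bp with a gap of 31 bp in replicate 2. All of its parts scored between 3.33 and 3.69. This region ended 6183 bp before the end of the X sequence, at the centromere side, and its nearest neighbour was 130463 bp away. chr2R:17544092-17555092 measured 11001 bp with a lower score of 1.79. Replicate 1 held 8726 and 1804 bp there, with scores of 1.97 and 0.386. Replicate 2 held 4800, 3038 and 1889 bp, with scores of 2.73, 1.60 and 0.413.

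Next in width after these and the 3-part region on X came chr2R:19908568-19918044, of 9477 bp with a score of 3.01. Replicate 1 divided it into 3 and replicate 2 into 2 regions, with the strongest at the right in both (scores of 4.05 and 3.81). A pair of 2R regions of similar size was unsplit in both replicates: chr2R:16552212-16561118, of 8907 bp with a score of 3.60, and chr2R:20849458-20858296, of 8839 bp with a score of 2.87. chrX:15779178-15787870, of 8693 bp, was 1 region in replicate 1, and in replicate 2 it was broken by a gap of 2 bp. chr2L:2191110-2199770, of 8661 bp and the widest on its arm, was 1 region in replicate 1, and 2 of unequal score (2.89 and 0.748) in replicate 2. The widest on 3L was chr3L:17417210-17425248, of 8039 bp with a score of 2.70, unsplit in both replicates and 75 bp from its neighbour. On chromosome 4 it was chr4:1046218-1054820, of 8603 bp with a score of 3.47, also unsplit.

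The wide regions were not shared among the arms in the way that all regions were. X held 74 of the 205, or 36.1% (29.5 to 43.1%), against 21.6% of all combined regions. By width, X held 51 of the 128 regions up to 6000 bp, 11 of 40 up to 7000 bp and 3 of 19 up to 8000 bp. It held 4 of 11 up to 9000 bp, 1 of 2 up to 10000 bp and 4 of the 5 beyond that. Put per arm, 6.85% of the regions on X were wide (5.41 to 8.52%), against 125 of 3724 (3.36%, 2.80 to 3.99%) on 2L, 2R, 3L and 3R together. Per length, that is 3.30 wide regions per Mb of X (exact 95% Poisson interval 2.59 to 4.14) and 1.29 per Mb (1.08 to 1.54) of those 4 arms. X also held more regions of any width per Mb, which enters the measure per length. It held 1081 on 22.4 Mb, against 777 on 23.0 Mb of 2L and 959 on 21.1 Mb of 2R. On 3L there were 890 on 24.5 Mb, and on 3R 1098 on 27.9 Mb. Intervals for X and for the autosomal arms did not overlap on either measure, but both measures count the same wide regions. Counts for X and the autosomes were known from earlier results of these data, so they are no independent support. The replicates' own lists gave the same order, but both replicates entered the combined list, so they add no separate support. In replicate 1, 5.72% of the regions on X and 2.50% of those on the 4 arms were wide. In replicate 2 the values were 6.81% on X and 3.49% on the 4 arms. The mean on X was 6.26 ± 0.77% (SD, n = 2). Neighbouring regions are not independent draws, so these intervals are too narrow as a measure of certainty.

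Among the 4 large autosomal arms all intervals overlapped. The wide share was 3.35% on 2L (26 regions), 3.86% on 2R (37), 3.37% on 3L (30) and 2.91% on 3R (32). Chromosome 4, a small chromosome with much heterochromatin, had 5 wide regions among 64. Its share of 7.81% had an interval of 2.59 to 17.3%, which takes in the values of every other arm. These 5 had widths of 5249 to 8603 bp, and none was split in either replicate. Among 90 regions on the 6 heterochromatic sequences none was wide, which allows a share of up to 4.02%. A single wide region lay on U, the sequence made of scaffolds with no assigned chromosome. It was chrU:5288956-5294964, of 6009 bp with a score of 0.546, and distances on U do not stand for distances in the genome.

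**Figure D3:**
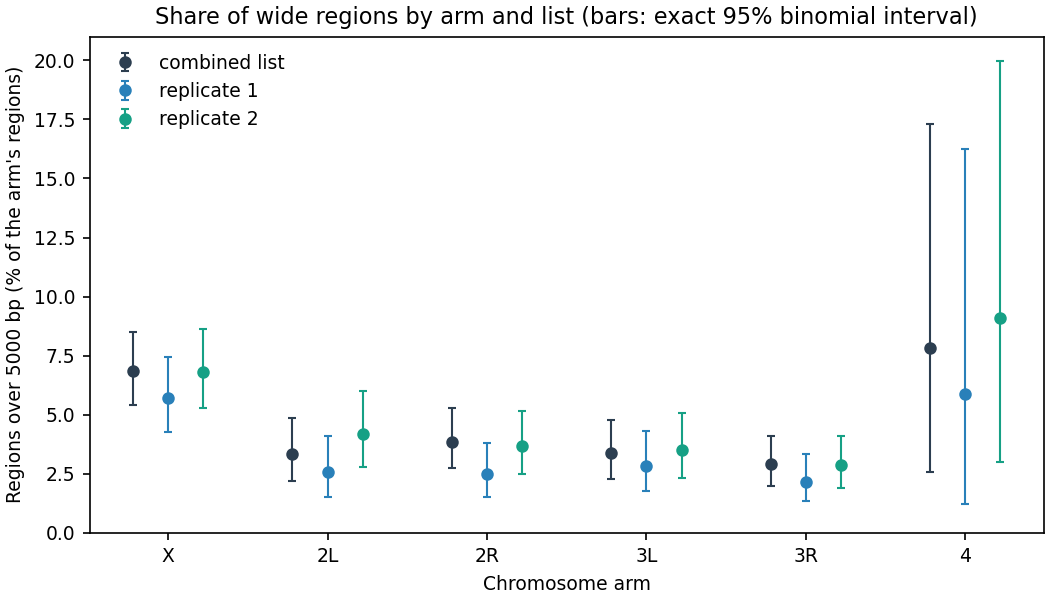
Percentage of an arm's regions that were wider than 5000 bp (vertical axis) for the 6 chromosome arms (horizontal axis), in the combined list and in the replicates' own lists, with exact 95% binomial intervals as bars. X stands at 6.85% in the combined list and 5.72 and 6.81% in replicates 1 and 2, above 2L, 2R, 3L and 3R in each list, while chromosome 4 has wide intervals.

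Ranked by score, X and the autosomal arms stood furthest apart at the top. Within the highest score quartile of the combined list, 53 of 299 regions on X were wide (17.7%, 13.6 to 22.5%), against 66 of 921 (7.17%, 5.59 to 9.03%) on the 4 large autosomal arms. In the quartile below, the shares were 7.09% (4.25 to 10.97%) on X and 5.82% (4.40 to 7.52%) on the autosomal arms, with overlapping intervals. In the next quartile 3 of 309 regions on X and 5 of 877 on the autosomal arms were wide, and in the lowest none was. The replicates' lists, each cut at its own quartiles, gave 14.3 ± 1.9% on X and 5.77 ± 1.13% on the autosomal arms in the highest quartile (SD, n = 2). In the quartile below they gave 7.19 ± 1.37% on X and 5.48 ± 1.69% on the autosomal arms. The difference between quartiles was not tested.

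Split and unsplit wide regions were then placed on the arms. Of the 74 on X, 16 were several regions in a replicate (21.6%, 12.9 to 32.7%), against 8 of 26 on 2L (30.8%), 15 of 37 on 2R (40.5%), 8 of 30 on 3L (26.7%) and 10 of 32 on 3R (31.3%), and the intervals overlapped. Of the split wide regions 28.1% (17.0 to 41.5%) lay on X, and of the unsplit ones 39.2% (31.3 to 47.5%). The share on X among unsplit regions alone was thus as large as among all 205.

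**Figure D4:**
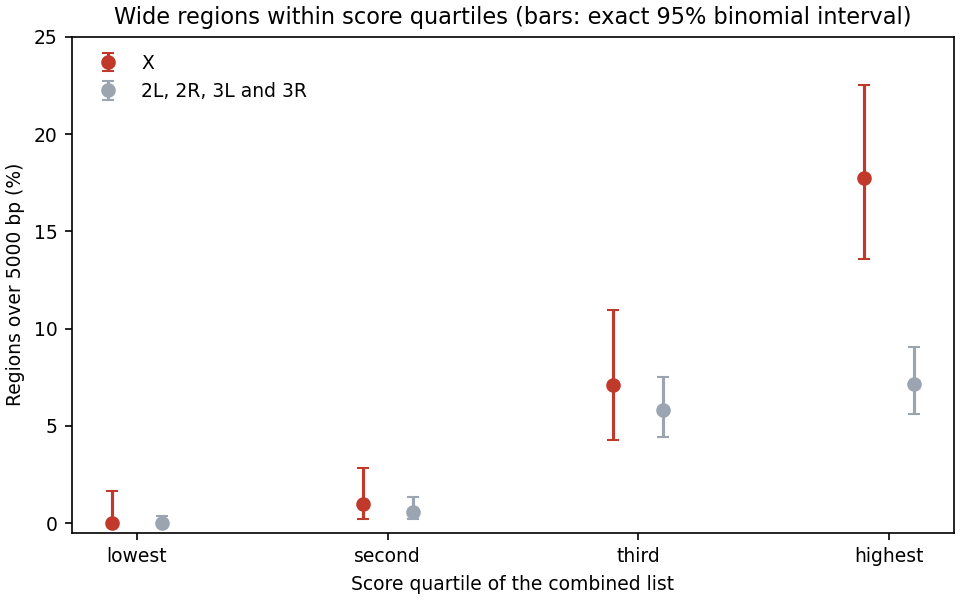
Percentage of regions wider than 5000 bp (vertical axis) within each score quartile of the combined list (horizontal axis), for X in red and for 2L, 2R, 3L and 3R together in grey, with exact 95% binomial intervals as bars. The intervals are apart in the highest quartile, at 17.7% on X and 7.17% on the autosomal arms, and overlap in the others.

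Pooled over the 5 large arms, the median distance of the wide regions from the centromere was 50.4% of the arm's length, with quartiles of 27.6 and 73.9%, and that of the narrower regions was 50.8%, with quartiles of 24.4 and 73.6%. Within single arms, medians for wide against narrower regions were 47.7 and 49.8% on X, 65.4 and 54.9% on 2L, 54.7 and 49.4% on 2R, 48.8 and 51.1% on 3L, and 43.7 and 47.4% on 3R. On 2L the wide regions lay farther out, with a lower quartile of 52.8% against 24.3% for the narrower ones. On 3R they lay nearer the centromere, with an upper quartile of 55.7% against 72.1%. The counts on these arms are small (26 and 32), and the differences were not tested. Of 10 equal stretches of X, the one where wide and narrower regions differed most in share lay at 20 to 30% of the length from the centromere. It held 16 of the 74 wide regions of X (21.6%) and 117 of the narrower ones (11.6%), and was singled out after the values were seen.

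On a finer scale, the 5 large arms were cut into 117 whole windows of 1 Mb. Shorter pieces left at the ends of the arms were not used. Wide regions there are not counted: chrX:22405416-22416644, chr3L:24526386-24532102 and chr3R:27076764-27081944. None of the 22 windows of X was without a wide region, against 32 of the 95 on the autosomal arms. Windows were not matched for regions of any width: those of X held 33 to 67, and the 32 without a wide region held 10 to 52. The median was 2.5 wide regions per window on X, with a highest value of 8, and 1 per window on the autosomal arms, with a highest value of 6. Of the 12 windows with 5 or more, 8 were on X. The longest stretch free of wide regions was chr3R:20877673-25817655, of 4.94 Mb, which held 159 narrower regions. On 2L a stretch of 4.34 Mb, chr2L:12008343-16349157, held 102 narrower regions and no wide one, and another of 3.84 Mb, chr2L:6052237-9892245, held 148.

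Very close neighbours were as common beside wide regions as in the list as a whole. Another region lay within 1000 bp of 44 of the 205, or 21.5% (16.1 to 27.7%), against 21.3% of all combined regions. The median gap from edge to edge was 2801 bp, with quartiles of 1231 and 6383 bp, and for the narrower regions it was 3355 bp, with quartiles of 1187.5 and 8982.5 bp. The lower quartiles were thus close, and the upper quartile was smaller for wide regions. A joined region has already taken in what would have been close neighbours, so its gaps are not like those of a single region. For wide regions that were 1 region in both replicates the median gap was 2281 bp. When only the higher-scoring 50% of regions was kept, the median gap was 5101 bp for 195 wide regions and 5769 bp for the narrower ones, so the size of the gap depends on which neighbours are counted. Fewer wide regions were isolated: 86.3% (80.9 to 90.7%) had a region within 10000 bp, against 77.6% (76.4 to 78.8%) of the narrower ones. Both neighbours were more than 20000 bp away for 13 wide regions (6.34%, 3.42 to 10.6%) and for 11.2% of the narrower ones (10.4 to 12.2%). On X alone the medians were 2305 bp for wide and 2559 bp for narrower regions, which is a smaller difference than over all sequences.

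**Figure D5:**
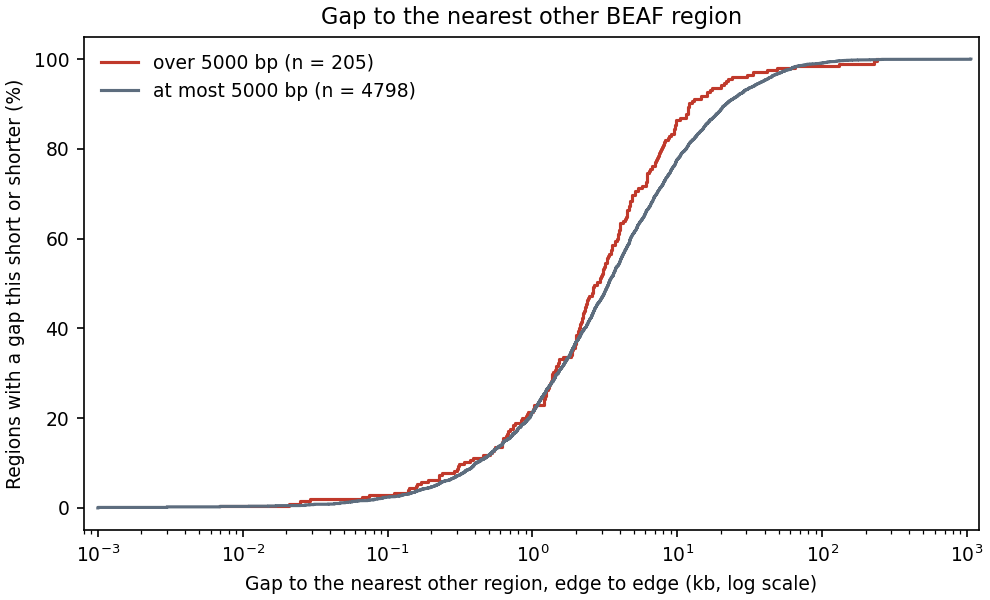
Cumulative percentage of regions (vertical axis) by the gap to the nearest other region on the same sequence in kb (horizontal axis, log scale), for the 205 wide regions in red and the 4798 others in grey. The curves run together up to about 1 kb, where both stand near 21%, and at 10 kb they stand at 86.3% for wide and 77.6% for narrower regions.

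The smallest gaps were 7 bp at chrX:15374626-15379748, 21 bp at chrX:12796280-12802238 and 25 bp at chr3R:5578862-5584032. The last of these was the member whose neighbour in replicate 2 reached past its edge. chrX:12796280-12802238, of 5959 bp with a score of 3.27, also had its farther neighbour only 245 bp away, and was 1 region of 5914 bp in replicate 1 and 5945 bp in replicate 2. The largest gaps were found at the ends of sequences and on U. chr3L:24526386-24532102, of 5717 bp with a score of 2.97, stood 238853 bp from its nearest neighbour and 11455 bp from the end of the 3L sequence at the centromere side. It was 1 region in both replicates, of 5646 and 5725 bp. The region on U was 226767 bp from the nearest other, and the one at the end of X, 130463 bp. The region nearest to a wide one had a median width of 2473 bp and a median score of 1.26, and the region nearest to a narrower one had 2358 bp and 0.938.

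The nearest region was itself wide for 13 of the 205 (6.34%, 3.42 to 10.6%) and for 4.11% (3.56 to 4.71%) of the narrower regions, so the intervals overlapped. The median gap from a wide region to the nearest other wide one on its sequence was 117150 bp. Among 9 pairs in direct succession, 4 were on X and 7 were within 5000 bp of each other. The closest were chr2L:10331038-10336262 and chr2L:10338272-10345344, of 5225 and 7073 bp, with 2009 bp between them.

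In 3 places, 3 wide regions lay within 40 kb, a window chosen after the values were seen. On 3R, chr3R:203354-230544 held regions of 5325, 5105 and 7907 bp with scores of 2.50, 2.60 and 2.71. With 1 narrower region among them, regions took up 77.8% of this stretch of 27191 bp near the centromere end of the arm. On X, chrX:15750528-15787870 held 5345, 6311 and 8693 bp in direct succession, with scores of 4.24, 2.98 and 3.70, and 54.5% of its 37343 bp was covered. On 2L, chr2L:10311048-10345344 held 5083, 5225 and 7073 bp, 1 narrower region among them, and 58.8% of its 34297 bp was covered.

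The score of a joined region can be set beside those of its parts. In 36 wide regions made of unequal parts, the combined score was compared with the width-weighted mean of the parts under 4 readings of the scale. Root mean square differences were 0.123 with the scores read as log2, 0.175 as natural logs, 0.255 as plain numbers and 0.313 as log10. For the unsplit wide regions the combined score lay below the mean of the replicate scores by a median of 0.047. Of these readings log2 had the smallest root mean square difference. Median differences were of similar size for log2 (-0.069) and plain numbers (0.083). Weighting by width is an assumption, and the scale is still not stated by the sources used here.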

How the data were processed

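Coordinates, types and scores were taken as deposited. Per the file headers they refer to FlyBase release 5, and the score in each list is the authors' own value for a region, of unstated scale. The submitters' processing notes name Bowtie 0.12.7. Caller, thresholds and the combining of replicates: not given in the sources used here. Python 3.11.15 with numpy 2.4.6, pandas 2.3.3, scipy 1.17.1 and matplotlib 3.10.9 was used, and the overlap code was tested on simulated lists. Regions were read as 1-based and inclusive. Overlap meant 1 bp shared. Shares carry exact Clopper-Pearson and densities exact Poisson 95% intervals. No test was run. Members and lists were chosen with earlier results of these data known. Regions named by rule were the 12 widest, the widest of each sequence, those of 3 or more parts in both replicates, those nearest the threshold, and those with extreme scores or gaps; further ones are illustrations. Genes and sequences were not analysed, since no release 5 genome was used here. Alternatives were other widths, a 50% overlap, single replicates, the higher-scoring 50%, arms only and unsplit regions only.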

Additional observations from a re-analysis of the deposited data

How the results depend on the processing

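Of 48 alternative values, 37 stayed within the interval or count range of the reported one. The number of wide regions was 446 with a threshold of 4000 bp and 77 with 6000 bp, and 133 to 183 in a single replicate's list. The share that was several regions in a replicate, reported as 27.8%, was 16.6% above 4000 bp and 37.7% above 6000 bp, and 10.7 to 22.9% by 1 replicate alone. The share with a region over the threshold in both replicates, reported as 59.5%, was 67.3% above 4000 bp and 50.6% above 6000 bp, and 64.9 to 84.9% in a single replicate. The median position was 55.5% of the arm above 6000 bp. The median gap to the nearest region was 5101 bp when only the higher-scoring 50% of regions was kept, which leaves fewer neighbours. The share on X was 29.9 to 39.2% across the alternatives. Above 6000 bp it was 29.9% with an interval of 20.0 to 41.4%, which takes in the 21.6% of all combined regions on X. No paired analysis was possible because the inputs, which share the replicate numbers of the ChIP samples, have no region list to set against theirs. Limits: depth is unknown, region edges are the caller's, and with 2 ChIP samples of unstated origin the spread may be technical.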
